A study of Mus musculus with 4 samples.

Results

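Tubulins are the proteins that build microtubules, and the genes described here are 10 of the mouse tubulin genes: the alpha-tubulins Tuba1a, Tuba1b and Tuba1c, the beta-tubulins Tubb2a, Tubb2b, Tubb3, Tubb4a, Tubb5 and Tubb6, and the gamma-tubulin Tubg1. They were chosen by gene name, and each matched 1 of the 54348 rows of the deposited expression table. The table held RNA-seq of live cells that carried the red reporter tdTomato and were sorted from forebrains of mouse pups killed on postnatal day 4. The control group, 2 libraries, had the genotype PdgfraCreER;AI14, and the fusion group, also 2 libraries, had PdgfraCreER;MN1:BEND2;AI14. PdgfraCreER is a tamoxifen-activated Cre recombinase under control of Pdgfra, a receptor gene of oligodendrocyte precursor cells and of some fibroblasts, AI14 makes tdTomato after recombination, and MN1:BEND2 is the fusion gene found in astroblastoma, a brain tumour. All pups carried the Cre and the reporter and were given tamoxifen intraperitoneally on postnatal days 0 and 1. The question is what the Pdgfra lineage expressed with the fusion gene and without it.

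An alpha- and a beta-tubulin join as a dimer, and dimers polymerize into the hollow filaments that carry cargo in axons and processes and form the mitotic spindle. Gamma-tubulin is not part of the filament wall: in a ring complex at the centrosome and elsewhere it starts new microtubules. Vertebrates have several alpha and beta genes whose proteins differ mostly at the acidic tail, where enzymes add or remove residues, and in the tissues that express them. Cells also control tubulin through its mRNA: when free dimers are in excess, the factor TTC5 binds the first residues of a new alpha- or beta-tubulin as it leaves the ribosome, and the mRNA is degraded.

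The genes lie in pairs and singly in the mouse genome (build GRCm38, GENCODE annotation). Tuba1b (chr15:98931425-98934565), Tuba1a (chr15:98949837-98953703) and Tuba1c (chr15:99029891-99038110) lie close together on chromosome 15, the first pair on the minus strand 15271 bases apart and Tuba1c on the plus strand. Tubb2a (chr13:34074274-34078007) and Tubb2b (chr13:34126748-34130466) lie 48740 bases apart on the minus strand of chromosome 13. Tubb6 and the other beta genes stand alone, among them Tubb3 (chr8:123411424-123422015, plus strand), Tubb4a (chr17:57080066-57087782, minus strand) and Tubb5 (chr17:35833921-35838306, minus strand). Tubg1 (chr11:101119938-101126419, plus strand) lies 29487 bases from its paralog Tubg2. The alpha and beta genes have 4 exons each and Tubg1 has 11.

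The first 30 coding bases of 9 of these genes, read from GENCODE transcripts on GRCm38, are shown because the start of an alpha- or beta-tubulin is the stretch through which its mRNA is recognized for decay, with Tubg1 given for contrast. The first 12 bases, 4 codons including the start, are in capitals. The 3 alpha genes share 1 spelling of them, and the 5 beta genes shown have 5.
Tuba1a: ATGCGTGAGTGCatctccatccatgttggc
Tuba1b: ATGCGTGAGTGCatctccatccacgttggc
Tuba1c: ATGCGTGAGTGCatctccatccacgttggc
Tubb2a: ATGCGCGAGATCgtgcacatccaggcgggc
Tubb2b: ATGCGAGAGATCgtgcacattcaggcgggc
Tubb3: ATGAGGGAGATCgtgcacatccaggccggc
Tubb4a: ATGCGGGAAATCgtgcacctgcaagccggt
Tubb5: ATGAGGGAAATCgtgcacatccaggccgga
Tubg1: ATGCCGAGAGAAatcatcaccctacagttg

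The last 60 coding bases, which encode the acidic tail and the stop codon, are shown for Tubb2a and Tubb2b because they let a reader see how near the copies of this pair are, which bears on how reads could be assigned to them. Capitals mark the 3 bases at which they differ.
Tubb2a: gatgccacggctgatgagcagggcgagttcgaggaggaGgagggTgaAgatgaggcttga
Tubb2b: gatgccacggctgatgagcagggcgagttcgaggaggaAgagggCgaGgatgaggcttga
Over the whole coding sequence, Tuba1a and Tuba1b were identical at 1333 of 1356 bases (98.3%) and Tubb2a and Tubb2b at 96.5%, whereas the other pairs of beta genes were identical at 80.2% to 85.7%. Of all 100-base windows of the transcript, 100 bases being the read length, 65.8% in Tuba1a, 73.0% in Tuba1b, 53.4% in Tuba1c, 36.9% in Tubb2a and 27.7% in Tubb2b also occurred in a transcript of another gene. For Tubg1 this was 4.11%, and for Tubb3, Tubb4a, Tubb5 and Tubb6 it was 0. The split of reads within Tuba1a, Tuba1b and Tuba1c, and between Tubb2a and Tubb2b, is therefore less certain. Tubb3 shared no window but lies wholly within Gm20388, a gene model on the same strand. Gm20388 was at 8.69 and 12.6 TPM in the controls and 0.173 and 3.63 TPM with the fusion gene, above Tubb3 in fusion replicate 2. In the annotation used here no 100-base window of the Tubb3 transcript fits both models. The annotation release behind the TPM is not stated, so a split of reads between these 2 rows cannot be checked. Of the 11 other genes that shared windows with the alpha members, 10 had a row in the table, and none was above 4.02 TPM in any library.

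Values were TPM, a level that is divided by transcript length and sums to the same total in each library. The libraries of the groups stood apart beyond the tubulins. Of 12871 genes tested with limma on log2(TPM + 1), 51.3% were lower in the fusion libraries and 4.95% were higher at an adjusted p under 0.05, and the median log2 change was -1.41. The mitochondrial genome's transcripts made up 10.1% and 7.30% of TPM in the controls, against 48.7% and 26.2% with the fusion gene. Transcripts of 4 Y-linked genes summed to 156 and 157 TPM in the controls and to 0.281 and 0.190 TPM with the fusion gene, so the sex of the pups and the genotype cannot be told apart. The tubulin changes are therefore also given after the libraries were rescaled to a median ratio of 1, which left 18.6% of tested genes lower and 14.3% higher. Whether the 2 libraries of a genotype came from different pups is not stated, and the p-values here speak only to the scatter between libraries, part of which may be technical.

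Tubulin mRNA was a smaller part of the transcriptome in both fusion libraries. Of the 10 genes, 8 were lower, none was higher and 2 did not pass, where 51.3% of all tested genes were lower. Their median log2 change was -3.69, against -1.41 over all tested genes. Both fusion libraries lay below both control libraries for 9 of the 10, which held for 71.1% of tested genes. Summed over the 10 genes, tubulin mRNA amounted to 7073 and 10119 TPM in the control libraries and to 194 and 302 TPM with the fusion gene. These were 0.707% and 1.01% of all TPM in the controls against 0.0194% and 0.0302%. Without mitochondrially encoded and ribosomal protein genes in the total, the shares were 0.840% and 1.16% against 0.0422% and 0.0456%. After rescaling, 7 of the 10 were lower, where 18.6% of all tested genes were, and the median log2 change was -2.07 against -0.15. All 10 passed the filter on low values, Tubb3 and Tubg1 only through their control libraries. The count rests on both control libraries: without control 1, limma called 1 member lower (Tubb4a), where 8.59% of tested genes were lower, and without control 2 it called 0, where 7.96% were, although 8 members had an unadjusted p under 0.05. In bulk libraries, fewer cells of a type and less RNA per cell cannot be told apart.

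**Figure D1:**
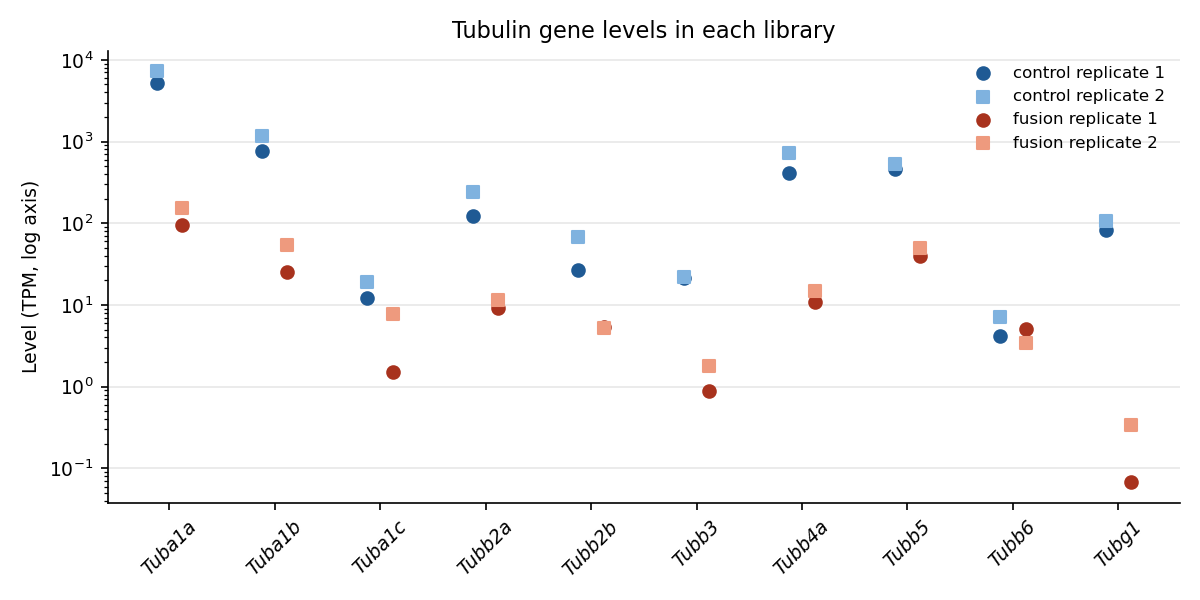
Level of each tubulin gene in TPM on a log axis, with 1 point for each of the 2 control and 2 fusion libraries. The groups overlap for Tubb6 and for no other gene, and Tubg1 has the widest gap, from at least 82.7 TPM in the controls to at most 0.339 TPM in the fusion libraries.

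Tuba1a, the main alpha-tubulin of developing neurons, was the most abundant tubulin mRNA in all 4 libraries. Its level was 5168 and 7231 TPM in the control libraries and 95.7 and 154 TPM with the fusion gene. The means, 6200 ± 1459 (SD, n = 2) and 125 ± 41.0 TPM (SD, n = 2), differed 49.7-fold. The log2 change was -5.64 ± 0.42 (SE, 95% interval -6.70 to -4.58, limma adjusted p = 0.0037), which was -4.24 relative to the median gene and -3.88 after rescaling (adjusted p = 0.0108). Only 52 of the 12871 tested genes had a more negative change. Tuba1b, a broadly expressed alpha-tubulin, was the next most abundant gene in the controls, at 769 and 1164 TPM, and was at 25.2 and 54.0 TPM with the fusion gene. It fell by 4.64 ± 0.49 on the log2 scale (SE, adjusted p = 0.0038), and by 2.89 after rescaling (adjusted p = 0.0108). Tuba1c, the least abundant of the alpha members, was at 12.1 and 18.8 TPM in the controls and at 1.52 and 7.76 TPM with the fusion gene. Its groups did not overlap, but the log2 change of -1.78 ± 0.71 (95% interval -3.57 to 0.02) did not pass (limma adjusted p = 0.0814), and it was -0.37 relative to the median gene and -0.29 after rescaling (adjusted p = 0.761).

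Tubb4a had the largest fall of the beta members. This gene is expressed most in the brain, in neurons and in myelinating oligodendrocytes, and mutations in its human counterpart cause a lack of myelin. It was at 408 and 727 TPM in the controls and at 10.9 and 15.0 TPM with the fusion gene, means of 567 ± 226 and 12.9 ± 2.93 TPM (SD, n = 2 each). The log2 change was -5.31 ± 0.43 (SE, 95% interval -6.39 to -4.22, limma adjusted p = 0.0037), and -3.58 after rescaling (adjusted p = 0.0108). Tubb5, the beta-tubulin of most dividing cells, was at 459 and 535 TPM in the controls and at 39.8 and 49.3 TPM with the fusion gene. It was about as abundant as Tubb4a in the controls, where the libraries of these 2 genes overlapped, and it was the more abundant of them in both fusion libraries. Its log2 change was -3.45 ± 0.33 (SE, 95% interval -4.30 to -2.61, limma adjusted p = 0.0037), and -1.70 after rescaling (adjusted p = 0.0132).

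Tubb2a and Tubb2b are beta-tubulins of the brain, and mutations in human TUBB2B disturb cortical folding. Tubb2a was at 122 and 238 TPM in the controls and at 9.28 and 11.4 TPM with the fusion gene, and fell by 3.92 ± 0.45 on the log2 scale (SE, limma adjusted p = 0.0038). Tubb2b was at 26.8 and 67.2 TPM in the controls, the widest relative spread of any member in that group, and at 5.44 and 5.28 TPM with the fusion gene. It fell by 2.78 ± 0.54 (SE, limma adjusted p = 0.0107), but after rescaling its log2 change of -1.13 did not pass (adjusted p = 0.151), whereas that of Tubb2a, -2.21, did (adjusted p = 0.0162). Tubb3, the beta-tubulin used as a marker of neurons, was low in these cells. It was at 21.6 and 22.0 TPM in the controls and at 0.879 and 1.82 TPM with the fusion gene, and fell by 3.31 ± 0.45 (SE, limma adjusted p = 0.0047) and by 1.93 after rescaling (adjusted p = 0.0279). With the loess correction for GC content and length its log2 change was -1.13 and did not pass (adjusted p = 0.0796).

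Tubb6 (chr18:67390717-67402749, plus strand), a broadly expressed minor beta-tubulin, was the exception. Its level was 4.20 and 7.22 TPM in the controls and 5.14 and 3.43 TPM with the fusion gene, so that the groups overlapped. The log2 change was -0.33 ± 0.48 (SE, 95% interval -1.54 to 0.89, limma adjusted p = 0.586), a value above the median gene by 1.08, and 77.7% of tested genes had a more negative change. After rescaling it was 1.14 (adjusted p = 0.174), so the sign of its change depends on the scaling, and with a loess correction for GC content and length it was 1.93 and passed (adjusted p = 0.0299), where 13.7% of tested genes were called higher.

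Tubg1, the main gamma-tubulin of most cells, had the largest change of the family. It was at 82.7 and 107 TPM in the controls and at 0.0678 and 0.339 TPM with the fusion gene. The log2 change was -6.32 ± 0.42 (SE, 95% interval -7.37 to -5.26, limma adjusted p = 0.0037), and -5.26 after rescaling (adjusted p = 0.0108). Of the tested genes, 11 had a more negative change. The first place of Tubg1 in the family depended on the scale. With a pseudocount of 5 its log2 change was -4.25, behind Tuba1a at -5.60, Tubb4a at -4.95 and Tuba1b at -4.49. By quantile normalization Tubg1 was at -4.80, behind Tuba1a at -5.06. Read depth is unknown, so how many reads lie behind the fusion values cannot be given. Its neighbour and paralog Tubg2 was at 10.6 and 21.9 TPM in the controls, and at 0.198 TPM and listed at 0 in the fusion libraries.

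**Figure D2:**
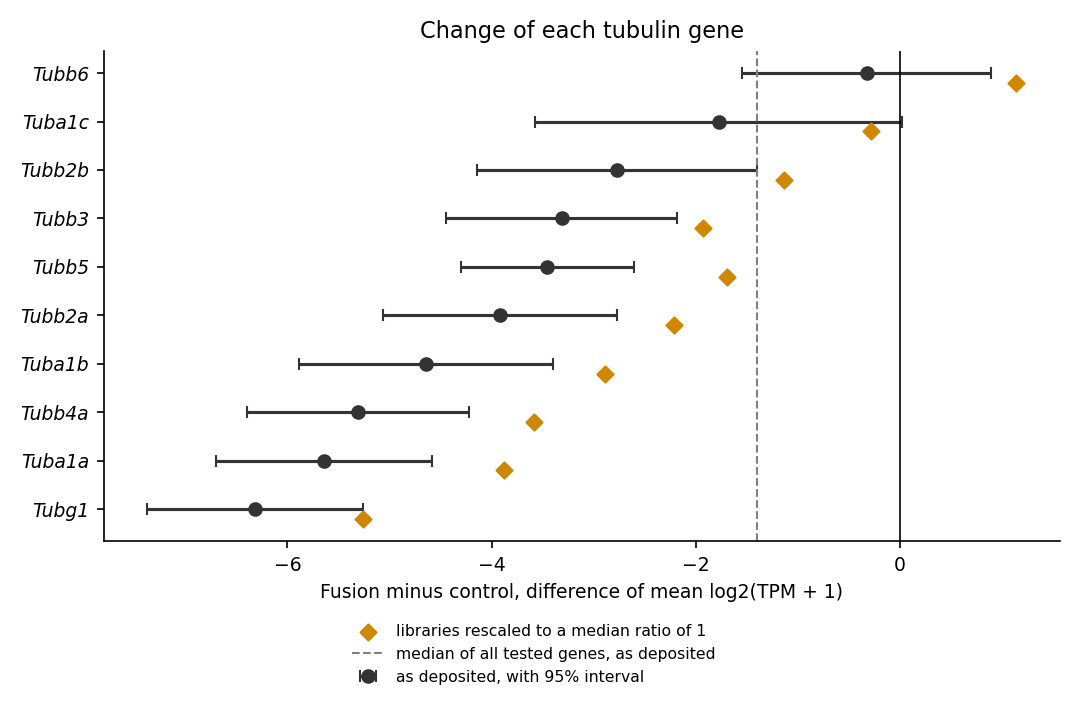
Fusion minus control difference of mean log2(TPM + 1) for each tubulin gene, as deposited with its 95% interval (circles) and after rescaling the libraries to a median ratio of 1 (diamonds), with the median of all tested genes as a dashed line. The intervals of 8 genes lie below 0 as deposited, those of Tuba1c and Tubb6 reach 0, and the diamond of Tubb6 is on the other side of 0.

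The fold changes were unequal, so the make-up of the tubulin pool differed between the groups. These shares are within a library and do not depend on its total. Tuba1a held 73.1% and 71.5% of the summed TPM of the 10 genes in the controls and 49.4% and 50.9% in the fusion libraries. Tubb5 held 6.49% and 5.29% in the controls and 20.5% and 16.3% in the fusion libraries. Tubb6 went from 0.0594% and 0.0713% to 2.65% and 1.13%, and Tuba1c from 0.171% and 0.186% to 0.786% and 2.57%. Tubg1 held 1.17% and 1.06% in the controls and 0.0350% and 0.112% in the fusion libraries. The groups did not overlap for the share of any of the 10 genes. Such separation was common: in TPM, both fusion libraries lay below both controls for 71.1% of tested genes and above both for 10.2%. The shares of a library are also tied to each other, since a lower share of Tuba1a raises the others. With 2 libraries a group the exact 2-sided permutation test cannot give less than p = 0.333, and it gave that value for each of these shares.

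The ratio of summed alpha to summed beta TPM was 5.72 and 5.27 in the controls and 1.71 and 2.50 in the fusion libraries. Within the alpha members, Tuba1a held 86.9% and 85.9% in the controls and 78.2% and 71.3% in the fusion libraries, and Tuba1b made up most of the rest. The ratio of Tuba1a to Tuba1b was 6.72 and 6.21 against 3.80 and 2.84. Within the beta members, Tubb4a held 39.2% and 45.5% of the beta TPM in the controls and 15.2% and 17.4% in the fusion libraries, and Tubb5 held 44.1% and 33.5% against 55.7% and 57.2%. The ratio of Tubb4a to Tubb5 was 0.888 and 1.36 in the controls and 0.273 and 0.304 in the fusion libraries. The share of Tubb2a in the beta members overlapped between the groups, at 11.7% and 14.9% against 13.0% and 13.3%, and so did that of Tubb3, at 2.08% and 1.38% against 1.23% and 2.10%. The other ratios named here did not overlap between the groups, and each had the smallest p the exact permutation test allows.

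**Figure D3:**
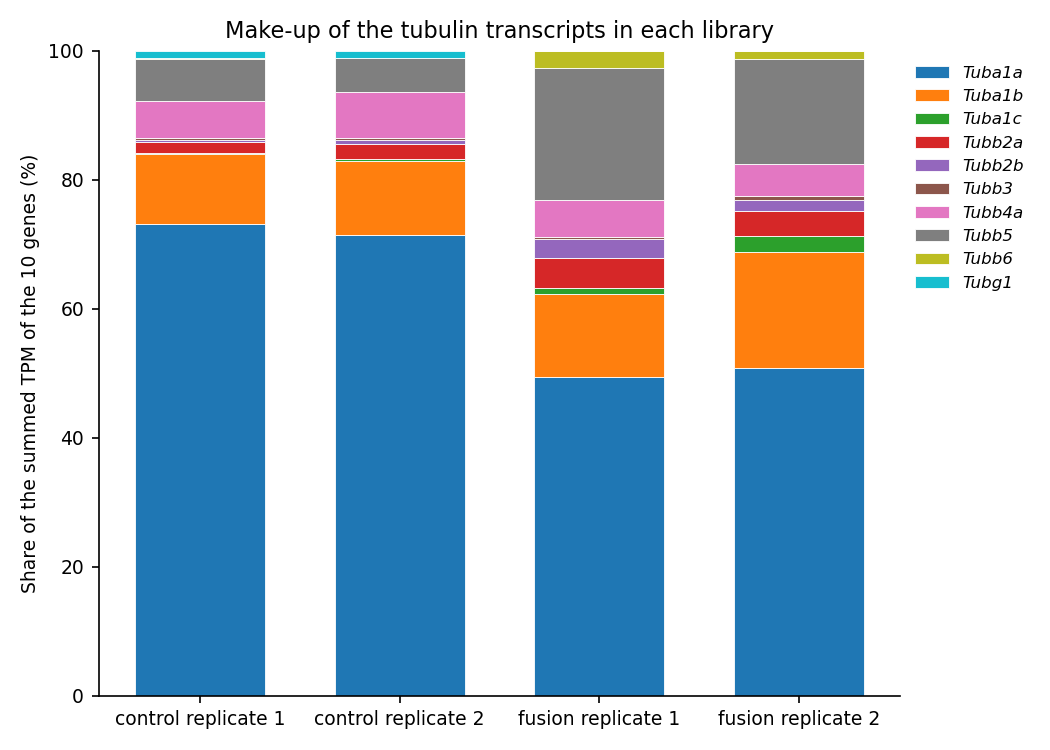
Share of the summed TPM of the 10 tubulin genes that each gene held, as stacked bars from 0 to 100%, with 1 bar for each of the 2 control and 2 fusion libraries. Tuba1a fills 71.5% or more of each control bar and 50.9% or less of each fusion bar, and the Tubb5 segment is larger in both fusion bars.

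In the controls the order of mean levels was Tuba1a, Tuba1b, Tubb4a, Tubb5, Tubb2a, Tubg1, Tubb2b, Tubb3, Tuba1c and Tubb6, and Tubb4a and Tubb5 were the only neighbours whose libraries overlapped. In the fusion libraries it was Tuba1a, Tubb5, Tuba1b, Tubb4a, Tubb2a, Tubb2b, Tuba1c, Tubb6, Tubb3 and Tubg1. There the libraries overlapped between Tubb5 and Tuba1b, Tubb4a and Tubb2a, Tubb2b and Tuba1c, and Tuba1c and Tubb6. Tubg1 moved from the middle of the order to its end.

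Of the 10 other tubulin genes of the table, 5 passed the filter, all but Tubb4b only through their control libraries. Of these, 4 were lower and none was higher, and after rescaling 2 were lower, beside 51.3% and 18.6% of all tested genes. Tubb4b, a widely expressed beta-tubulin that is also used in cilia, was at 207 and 344 TPM in the controls and at 16.0 and 16.0 TPM with the fusion gene, and fell by 3.98 on the log2 scale (limma adjusted p = 0.0037) and by 2.25 after rescaling (adjusted p = 0.0145). Its ratio to Tubb4a was 0.507 and 0.474 in the controls and 1.47 and 1.07 in the fusion libraries. Tubg2 had a log2 change of -3.90 (limma adjusted p = 0.0043), and -2.90 after rescaling (adjusted p = 0.0156). Tubd1, the delta-tubulin of centrioles, was at 27.8 and 18.3 TPM in the controls, and listed at 0 and at 4.20 TPM in the fusion libraries (log2 change -3.37, limma adjusted p = 0.0230, and adjusted p = 0.16 after rescaling). Tuba4a was at 1.99 and 1.45 TPM against 0.0312 and 0.471 TPM (log2 change -1.14, limma adjusted p = 0.0240). This was a smaller fall than that of the median gene, and after rescaling it was -0.50 and did not pass (adjusted p = 0.281). Since Tuba4a overlaps Stk16 on the other strand and the strand of the reads is not stated, its reads cannot be told apart from those of Stk16 in the overlap. Tube1, the epsilon-tubulin of centrioles, was at 9.41 and 5.50 TPM against 0.190 and 3.64 TPM and did not pass (log2 change -1.81, limma adjusted p = 0.0917, and -0.68 after rescaling). Tuba8 was below the filter with at most 1.74 TPM, and Tuba3a, Tuba3b, Tubal3 and Tubb1 were listed at 0 in every library.

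**Figure D4:**
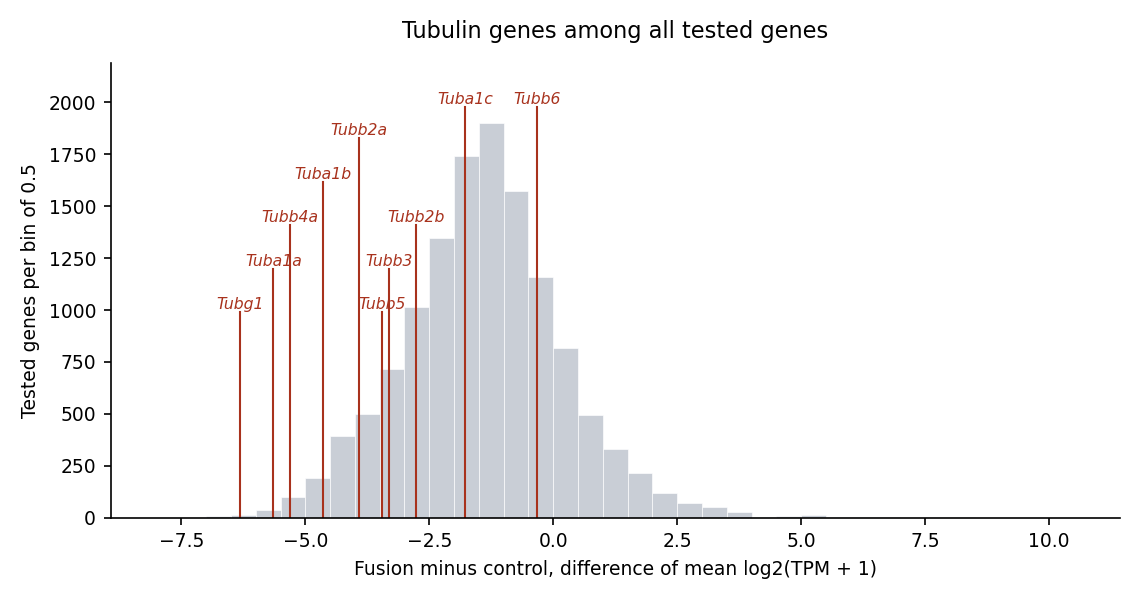
Histogram of the log2 change, fusion minus control, of the 12871 tested genes, with the tubulin genes marked. The median gene lies at -1.41, Tubb6 lies above it, and Tubg1, Tuba1a, Tubb4a and Tuba1b lie in the lower tail.

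Genes whose 4 values were most like those of a member were looked up by Euclidean distance between log2(TPM + 1) values, centred on each gene's mean over the 4 libraries. The pool was 7022 other tested genes with a mean of at least 5 TPM, with predicted and pseudogene models left out. Nearest to Tuba1a were Atg101 (distance 0.198), Sox6 (0.199) and Aamp (0.291). Nearest to Tubb5 were Tbc1d14 (0.0459), Saal1 (0.0802) and Chaf1b (0.0806). Nearest to Tubg1 were Pgpep1 (0.166), Gpx3 (0.241) and Cby1 (0.311). With 4 libraries in 2 groups, this likeness says little beyond an equal fold change and an equal spread.

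The promoters of 7 members were in the RefSeq table (GRCm38.p6), as 300 bases around the annotated start. The CCAAT box, the binding motif of NF-Y and common in promoters of growth and cell-cycle genes, occurred on either strand (CCAAT or ATTGG) in 4 of the 7, Tuba1a, Tuba1c, Tubb3 and Tubb5, and in 37.4% of all promoters of that length. The GC box GGGCGG on either strand occurred in 5 of the 7 and in 35.7% of all promoters. The 250 bases before the Tubb5 start (chr17:35838302-35838551, minus strand, written 5′ to 3′) are shown because this promoter held CCAAT at 2 places, in capitals.
Tubb5: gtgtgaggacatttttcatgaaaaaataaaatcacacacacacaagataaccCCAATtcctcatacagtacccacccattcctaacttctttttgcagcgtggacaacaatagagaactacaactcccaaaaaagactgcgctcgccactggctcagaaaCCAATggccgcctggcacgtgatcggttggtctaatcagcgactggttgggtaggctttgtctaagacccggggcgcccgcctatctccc
These matches describe letters in a window, and no binding was measured.

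Genes that act on tubulin were read from lists chosen by function. Their counts stand beside 51.3% lower and 4.95% higher among all tested genes, and 18.6% lower and 14.3% higher after rescaling. Newly made tubulin is folded by prefoldin, the CCT chaperonin and the tubulin cofactors, and of 21 such genes 14 were lower, 2 were higher and 5 did not pass, with a median log2 change of -2.18. The CCT subunit Cct7 was at 547 and 630 TPM in the controls and at 12.5 and 21.7 TPM with the fusion gene (log2 change -5.07, limma adjusted p = 0.0037). Cct5, Cct8 and Arl2, a small GTPase that works with the cofactors, fell, with log2 changes of -3.86, -3.53 and -3.67. The 2 genes that rose were the prefoldin subunit Pfdn4, named after its values were seen, and Tbca, the cofactor that holds beta-tubulin. Tbca was at 302 and 278 TPM in the controls and at 552 and 721 TPM with the fusion gene (log2 change 1.12, limma adjusted p = 0.0391). Pfdn4 was at 116 and 87.8 TPM against 689 and 629 TPM (log2 change 2.70, limma adjusted p = 0.0041). The abundant prefoldin subunit Pfdn5 was at 445 and 400 TPM against 297 and 445 TPM and overlapped. After rescaling, 8 of the 21 were lower and 5 higher, among them Pfdn5 with a log2 change of 1.55 (limma adjusted p = 0.0161).

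Microtubule nucleation beyond Tubg1 was covered by 20 genes of the gamma-tubulin ring complex, its anchors and the augmin complex. Of these 13 were lower, none was higher and 7 did not pass, with a median log2 change of -1.92, and after rescaling 1 was lower and 1 higher. Akap9, a centrosomal and Golgi anchor, was at 73.4 and 62.0 TPM in the controls and at 0.517 and 2.45 TPM with the fusion gene (log2 change -4.90, limma adjusted p = 0.0038). The augmin subunits Haus7 and Haus5 fell, with log2 changes of -4.06 and -3.27. The ring subunit Tubgcp2 was at 23.4 and 41.6 TPM against 0.789 and 4.22 TPM (log2 change -3.40, limma adjusted p = 0.0109). Mzt2, a small ring component, was at 89.1 and 99.5 TPM against 25.8 and 22.6 TPM (log2 change -1.92, limma adjusted p = 0.0079), near the median gene. Haus1 was at 86.1 and 87.5 TPM against 28.0 and 60.8 TPM and did not pass.

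Of 20 enzymes that modify tubulin, 16 could be tested, of which 8 were lower, none was higher and 8 did not pass, a share near the 51.3% of all tested genes. Their median log2 change, -1.54, also lay near that of all genes. After rescaling 6 were lower and 2 were higher, Svbp and Agtpbp1, a deglutamylase named after its values were seen. Ttll1, a polyglutamylase subunit, was at 119 and 108 TPM in the controls, and listed at 0 and at 1.94 TPM with the fusion gene (log2 change -6.06, limma adjusted p = 0.0037). The alpha-tubulin acetylase Atat1 and both deacetylases of the list fell together. Atat1 was at 177 and 217 TPM against 10.5 and 5.24 TPM (log2 change -4.54). Sirt2, which is abundant in oligodendrocytes, was at 1179 and 1298 TPM against 38.9 and 25.6 TPM (log2 change -5.25), and Hdac6 fell by 2.88 (limma adjusted p = 0.0078). Svbp, the partner of the detyrosinating vasohibins, was at 259 and 236 TPM against 171 and 385 TPM and overlapped.

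Of 28 genes for proteins that bind microtubules or free tubulin, 27 could be tested, of which 19 were lower, none was higher and 8 did not pass (median log2 change -1.94, and 3 lower and 1 higher after rescaling). Map1b, which stabilizes microtubules in growing axons, was at 98.3 and 111 TPM in the controls and at 1.23 and 2.93 TPM with the fusion gene (log2 change -5.15). The plus-end proteins Mapre2 and Mapre1 fell, with log2 changes of -4.39 and -3.52. Stathmins bind free dimers: Stmn1 was at 1621 and 1684 TPM against 236 and 232 TPM (log2 change -2.81, limma adjusted p = 0.0038), and Stmn3 fell by 3.30. After rescaling, the change of Stmn1, -1.04, did not pass (limma adjusted p = 0.0593). Neither did that of Mapre1, -1.79 (limma adjusted p = 0.0556), nor that of Stmn3, -1.54 (limma adjusted p = 0.0503). The change of Mapre2, -2.81, passed (limma adjusted p = 0.0109).

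Genes for microtubule severing and for decay of tubulin mRNA numbered 9, of which 8 could be tested, and 6 were lower, none was higher and 2 did not pass, with 3 lower and none higher after rescaling. Ttc5, the factor that binds the starts of alpha- and beta-tubulin, was at 66.3 and 82.1 TPM in the controls and at 2.15 and 7.92 TPM with the fusion gene (log2 change -3.82, limma adjusted p = 0.0061, and 0.0275 after rescaling). The severing genes Fignl1 and Katna1 fell, with log2 changes of -4.42 and -1.88, and Katnal2 was at 10.5 and 9.84 TPM in the controls and listed at 0 in both fusion libraries.

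All 10 genes of a short list for the mitotic spindle and cell division were lower, with a median log2 change of -3.39, and after rescaling 4 were lower. The centrosomal kinase Aurka was at 76.2 and 85.4 TPM in the controls, and at 0.207 TPM and listed at 0 in the fusion libraries (log2 change -6.22, limma adjusted p = 0.0037), a change close in size to that of Tubg1. The mitotic cyclin Ccnb1 had a log2 change of -4.40, the kinases Plk1 and Aurkb had -4.11 and -3.86, and Cdk1 had -3.59 (limma adjusted p = 0.0136). After rescaling, Aurka and Aurkb passed, but Plk1 (limma adjusted p = 0.0517) and Cdk1 (limma adjusted p = 0.205) did not.

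Markers of the cell types that the sorted tdTomato-positive cells could include were counted beside the same shares of all tested genes. These were 51.3% lower and 4.95% higher as deposited, and 18.6% lower and 14.3% higher after rescaling. Of 10 oligodendrocyte precursor markers, 7 were lower and none was higher, and after rescaling 2 were lower and 1 was higher. Their summed level was 1302 and 1684 TPM in the controls and 454 and 580 TPM with the fusion gene. Pdgfra, the gene that drives the Cre, was detected in all 4 libraries, at 337 and 429 TPM against 123 and 192 TPM. Of 10 oligodendrocyte markers, 7 could be tested and all 7 were lower, 4 of them also after rescaling. Their sum was 2044 and 2879 TPM against 182 and 147 TPM, and Mog, Ermn and Opalin were listed at 0 in both fusion libraries. Mbp, of compact myelin, was at 529 and 1023 TPM against 61.4 and 60.4 TPM.

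Of 15 neuron markers, 10 could be tested, of which 6 were lower and none was higher, and 1 was lower and 1 higher after rescaling. They had a sum of 870 and 789 TPM in the controls and 148 and 190 TPM with the fusion gene. Gap43, which oligodendrocyte precursors also make, gave 606 and 541 TPM of the control sums, and the defining marker Rbfox3 was at most 0.665 TPM in any library. Of 9 astrocyte markers, 8 could be tested, of which 4 were lower and none was higher, and 1 was lower and 2 were higher after rescaling. Their sum, 9584 and 9546 TPM against 9054 and 17252 TPM, was mostly that of Fabp7. Of 10 fibroblast markers, 9 could be tested, of which 4 were higher (Mgp, Col1a1, Igf2 and Foxc1) and none was lower, and 7 were higher after rescaling. The list summed to 58.5 and 163 TPM against 535 and 1069 TPM. Most of the fusion sums was Mgp, at 364 and 717 TPM there and listed at 0 and at 1.34 TPM in the controls. Of 12 microglia and macrophage markers, 10 could be tested, of which 3 were higher (Tyrobp, Aif1 and Ctss) and 2 were lower, and after rescaling 4 were higher and none was lower. Their sum was 110 and 59.8 TPM against 170 and 246 TPM, and P2ry12 was listed at 0 in both fusion libraries. Endothelial markers summed to at most 5.88 TPM and ependymal markers to at most 27.6 TPM in any library. Of 7 endothelial markers, 1 could be tested, Cdh5, and it was higher, also after rescaling. Cdh5 was at 0.252 and 0.152 TPM in the controls and at 1.11 and 1.13 TPM with the fusion gene. Of 8 ependymal markers, 3 could be tested, of which 1 was higher (Ccno) and 1 was lower (Rsph1). After rescaling, 1 of these 3 was higher and 1 was lower. The part of these cell types, of the mitochondrial share and of the sex of the pups in the tubulin changes was not tested.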

How the data were processed

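RNA was measured in 2 control and 2 fusion libraries of sorted cells, amplified as full-length cDNA and sequenced as 100-base paired reads, per the labels' protocols. The authors deposited TPM per gene. Per the submitters' processing notes, the tools were Trimmomatic 0.39 and Salmon 1.8.0 and the build was GRCm38, while their annotation release and gene summing step are not stated. TPM keeps no depth, so the depth per library is unknown and no counting interval or floor is given. A fall of abundant genes raises all others, and single-cell amplification carries PCR copies that are not marked.

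The 12871 genes that reached 1 TPM in 2 or more libraries entered a 2-sided limma test (limma 3.58.1, R 4.3.3, eBayes with a trend) on log2(TPM + 1), a scale that understates the change of low genes, with Benjamini-Hochberg adjustment over all tested genes and a threshold of 0.05. Rescaling divided each library by its median ratio over 10965 genes above 0 in every library. Shares and ratios were compared with the exact permutation test. Sequences and coordinates came from GENCODE M21 (GRCm38) and RefSeq (GRCm38.p6), read with Python 3.11.15 and Biopython 1.88. The fit was also run on simulated normal values whose variances were drawn from the fit itself, so that run cannot check its assumptions about scatter.

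Every member was named, and every other tubulin gene with at least 1 TPM in a library. From each partner list, up to 4 passing genes of largest change and up to 2 of highest mean were named, and from marker lists up to 3 of highest mean and any that rose. Values are not printed for each of the latter. A gene that the rule takes is not reported here. Members and lists were chosen with earlier results of these data known.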

Additional observations from a re-analysis of the deposited data

How the results depend on the processing

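The 10 log2 changes were recomputed under other pseudocounts, filters, scalings and limma settings, a replicate block, each library left out, and a loess correction for GC content and length. Tuba1a ranged from -5.98 to -3.47, Tubg1 from -8.44 to -4.09, Tubb4a from -5.72 to -3.23 and Tubb5 from -3.61 to -1.43. Members lower numbered 6 to 9 except without a control library (range over left-out libraries 0 to 9). Tubb2b lost its call under median ratio scaling, quantile normalization, the loess correction and without either control library, and Tubb3 with the loess correction and without either control library. Tubb6 changed sign, with 1.14 by median ratio scaling, 1.17 by quantile normalization, 0.22 when renormalized without mitochondrial and ribosomal protein genes, 0.0029 without control replicate 2 (range over left-out libraries -0.66 to 0.0029), and 1.93 with the loess correction, where it was the 1 member called higher. Tuba1c was 0.43 with the loess correction (adjusted p = 0.589), and passed without fusion replicate 2 (-2.68, adjusted p = 0.0113). The cause of these shifts was not tested.

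Other tubulin genes called lower numbered 4 of the 5 tested, where 51.3% of all tested genes were lower. They numbered 2 with a pseudocount of 0.1 (41.9% of all tested genes lower), no filter (18.4%) or median ratio scaling (18.6%). They also numbered 2 with quantile normalization (15.2%), renormalization (37.9%) or the loess correction (16.5%). The number also moved with a library left out. Genes called higher among all tested were 637, against 353 with no filter, 405 with a mean of at least 5 TPM, 1846 by median ratio scaling, 1948 by quantile normalization, 973 when renormalized, 1766 with the loess correction, and 14 to 1084 with a library left out. Genes called lower were 6606, against 2396, 1955 and 2117 by median ratio scaling, quantile normalization and the loess correction, and 1025 to 7987 with a library left out. The log2 change in the share of Tuba1a in the pool was -0.53, and -0.59 over every tubulin gene. The deviations of same-numbered libraries from their group means had a correlation of -0.0398 over genes. With so few libraries this cannot tell whether same-numbered libraries shared a litter or a batch, and the labels do not say. With a replicate block, 6978 genes and 9 members were lower and 642 genes were higher, and the added member was Tuba1c (adjusted p = 0.024). When a group is left with 1 library, that library is assumed to vary like the other group. The unknown depth limits what can be said of low values such as those of Tubg1 and Tubb3 in the fusion libraries.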
